A study of Mus musculus with 2 samples.

Results

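Amino acid and neurotransmitter transporters of the solute carrier (Slc) gene families 1, 3, 6, 7, 36, 38 and 43 were examined in endocrine progenitor cells sorted from the embryonic mouse pancreas. The members are all 59 of the 23284 gene symbols whose name joins 1 of these 7 family numbers to the letter a and a plain number, so that Slc6a20a and Slc6a20b, whose names end in a letter, fall outside. The RNA came from GFP-positive cells that were sorted out of dissociated pancreata of NGN3-EGFP embryos at stage e15.5, on a mixed C57BL6 background. The labels give 1 group with 2 libraries, replicates 1 and 2, and no control, other genotype or treatment. They do not say whether the libraries came from separate litters, whether embryos were pooled, or whether the EGFP reporter replaces a Neurog3 allele. The spread between the libraries may therefore be technical.

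Cells take up amino acids through families of carriers that differ in substrate, ion coupling and location. Sodium-coupled Slc38 carriers concentrate glutamine and alanine. Slc7 carriers bring in cationic amino acids or, bound to a heavy chain of the Slc3 family, exchange large neutral ones. Slc43 carriers let branched-chain amino acids equilibrate, and Slc36a1 of the Slc36 family is proton-coupled and sits largely on lysosomes. Slc1 and Slc6 carriers are known from the brain, where they clear glutamate, GABA, glycine and monoamines. In the adult islet, amino acids such as glutamine, arginine and leucine stimulate glucagon or insulin secretion, which is why the carriers of these substrates are of interest in islet precursors.

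Replicate 1 held 12495143 counted reads and replicate 2 held 12043734, and levels are given as CPM (reads per 1000000 counted reads) after scaling with TMM factors, a correction for library composition. Where a pair of values is given, replicate 1 comes first. A count of 0 allows up to 3 reads, or 0.241 CPM in replicate 1 against 0.248 CPM in replicate 2, and such limits and the 95% Clopper-Pearson intervals given below cover counting error only. All 7 endocrine progenitor markers reached 1 CPM in both libraries, with summed levels of 9566 CPM in replicate 1 against 9532 CPM in replicate 2, and Neurog3 itself was at 736 and 551 CPM. Most of the endocrine sum was Chgb, at 5381 and 5786 CPM. Markers of other cells were lower in sum, and all sums but the erythroid one were higher in replicate 1. The acinar marker Ctrb1, at 1321 and 986 CPM, was above each endocrine marker other than Chgb in both libraries. The 8 acinar markers summed to 2505 and 1700 CPM in replicates 1 and 2, the 8 mesenchymal markers to 422 and 138 CPM, the 5 endothelial markers to 29.3 and 2.81 CPM, and the 5 immune markers to 56.5 and 11.7 CPM. The 5 neural crest and glial markers summed to 9.32 and 4.63 CPM and the 4 erythroid markers to 0 and 2.81 CPM. Ptprc, the pan-leukocyte marker, had 0 reads in replicate 1 and 1 read in replicate 2, Foxd3 of the neural crest had none in either, and Ptf1a of the acinar lineage had 0 and 3 reads. Of the other defining markers, Sox10 of glia had 0 and 5 reads, Kdr and Tie1 of endothelium had 1 and 0 and 0 and 1 reads, and the erythroid genes Hba-a1 and Hbb-b1 had none in either. In these bulk libraries, fewer cells of a type and less RNA per cell cannot be told apart.

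Transporter transcripts were concentrated in a few genes. Of the 59 members, 25 (42.4%) reached 1 CPM in both libraries, against 45.7% of all 23284 symbols, so the members were detected about as often as other genes. No read was counted in either library for 16 members (27.1%), against 34.9% of all symbols. A mean of at least 10 CPM was reached by 24 members (40.7%), against 39% of all symbols. Together the members took 5195 CPM in replicate 1 against 4654 CPM in replicate 2, or 0.517% and 0.467% of the counted reads. Of that sum, Slc38a5 alone held 22.2% in replicate 1 and 23.7% in replicate 2. The 3 leading members Slc38a5, Slc7a2 and Slc6a6 held 49.3% and 51.2%, and the 10 leading members held 86.6% and 86.7%.

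**Figure D1:**
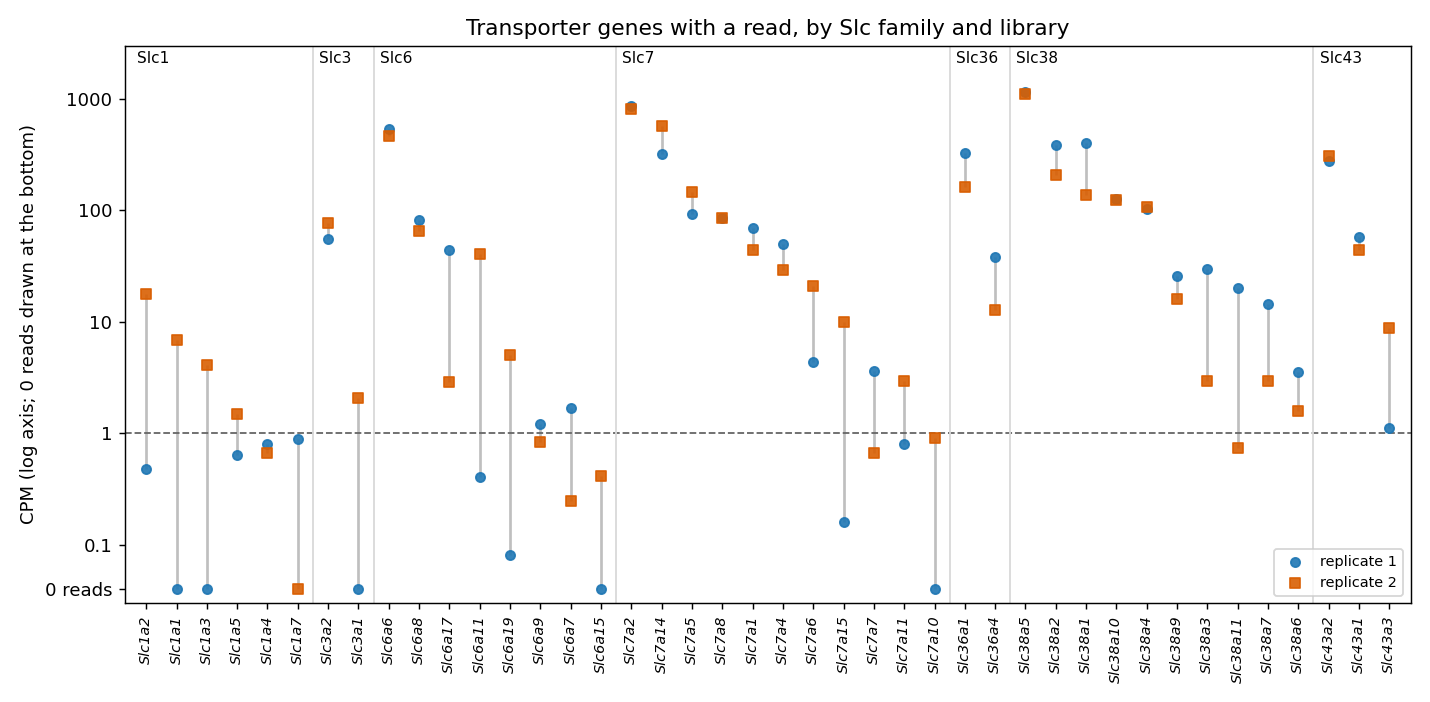
CPM on a log axis for 42 of the 43 members with at least 1 read, grouped by Slc family and ordered by mean within it, with a blue circle for replicate 1, an orange square for replicate 2, a grey line joining them and a dashed line at 1 CPM. Slc38a5, Slc7a2 and Slc6a6 lie close together in the libraries, while members under 10 CPM often reach 1 CPM in 1 library and not in the other.

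The families shared this RNA unequally. The Slc38 family was at 2267 CPM in replicate 1 against 1706 CPM in replicate 2, with 9 of 11 members at 1 CPM or more in both libraries. Slc7 followed with 1497 and 1720 CPM and 7 of 15 members. Slc7 summed above Slc38 in replicate 2 by a narrow margin and below it in replicate 1, so the order of the leading families differed between libraries. Slc6 had 669 and 586 CPM, of which Slc6a6 made up 80.7% and 80.2%, and only 3 of its 17 members were detected in both libraries. Slc43 was at 335 and 358 CPM with 3 of 3 members, and Slc36 at 370 and 175 CPM with 2 of 4. The Slc3 heavy chains were at 55.1 and 78.6 CPM with 1 of 2 members. Slc1, the glutamate and neutral amino acid carriers, was at 2.81 and 31.0 CPM, and none of its 7 members reached 1 CPM in both libraries.

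**Figure D2:**
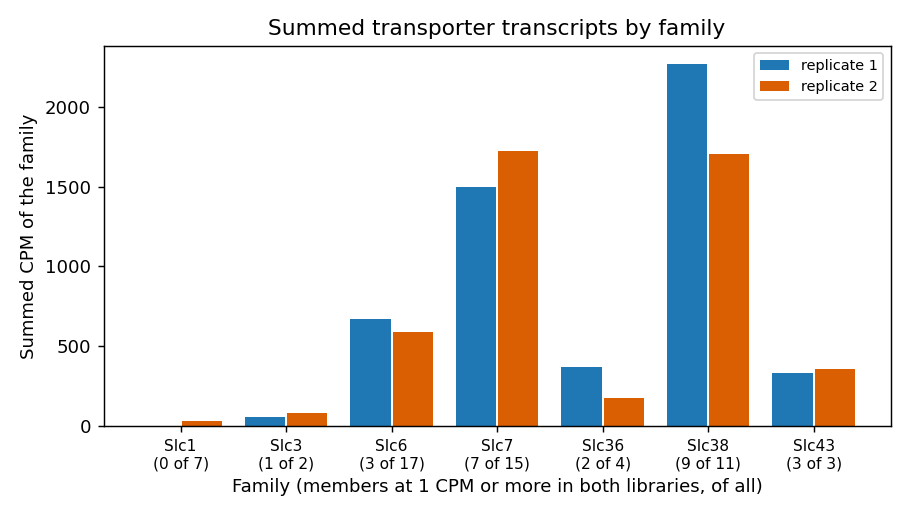
Summed CPM of each Slc family in replicate 1 (blue) and replicate 2 (orange), with the number of members at 1 CPM or more in both libraries given under each name. Slc38 and Slc7 stand far above the rest, and Slc1 is near the baseline at 2.81 and 31.0 CPM.

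Slc38a5 encodes a sodium-coupled, proton-exchanging carrier of glutamine, asparagine and histidine, and rises in mouse alpha cells when blood amino acids are raised. It was at 1153 CPM in replicate 1 against 1105 CPM in replicate 2, a mean of 1129 ± 34.2 CPM (SD, n = 2). The libraries were close, 1.04-fold apart, and the mean lay at percentile 99.8 among all symbols. Because longer transcripts give more reads, genes are compared with each other as CPM per kb of exon. On that scale Slc38a5 was at 519 in replicate 1 and 497 in replicate 2. It was above the next member, Slc7a2, by 5.18-fold and 5.33-fold, where by CPM the ratios were 1.33 and 1.37.

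Slc38a5, the most abundant member, is shown with Slc7a11, a scarce one. The Slc7a11 promoter holds a motif that Slc38a5 and most other members lack. Slc7a11 encodes the cystine and glutamate exchanger xCT and is a known target of ATF4, the factor that mediates the response to amino acid shortage by binding TGATGNAA. Both stretches are the 100 bases before the RefSeq start on GRCm38.p6, a later build than the mm9 named by the submitters, 5′ to 3′ on the gene's strand, chrX:8271281-8271380 (plus) for Slc38a5 and chr3:50443614-50443713 (minus) for Slc7a11. Capitals mark TGATGNAA on either strand.
Slc38a5: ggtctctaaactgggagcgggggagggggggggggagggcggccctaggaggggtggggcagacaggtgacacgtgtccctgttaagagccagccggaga
Slc7a11: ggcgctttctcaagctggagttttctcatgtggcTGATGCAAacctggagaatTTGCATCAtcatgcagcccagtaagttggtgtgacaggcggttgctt
The Slc7a11 stretch held the motif on both strands, from -66 to -59 and from -47 to -40 relative to the start, without overlap, and the Slc38a5 stretch did not hold these letters. Of the 41 members with a promoter in the RefSeq table, only Slc7a11 and Slc7a7 (4.88%) held TGATGNAA within 250 bases before a start, against 3.91% of 27025 genes. Of 22 genes of the list of the amino acid deprivation response and ATF4 targets, 5 (22.7%) did: Asns, Chac1, Nupr1, Pycr1 and Vldlr. That list was drawn up to hold ATF4 targets, so its share is not an independent comparison. With the exact letters TGATGCAA on either strand, the same 2 members (4.88%) held a match, against 0.918% of 27025 genes, and so did 4 of the 22 deprivation genes (18.2%), without Asns. A match of letters does not show binding, and whether the motif bears on transcript levels was not tested. Slc7a11 itself was at 0.804 CPM in replicate 1 (95% interval from 0.385 to 1.48) and reached 2.98 CPM in the other library (from 2.08 to 4.12), while Atf4 was at 355 and 438 CPM.

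The other Slc38 members included the system A carriers Slc38a1, Slc38a2 and Slc38a4, which pump alanine, serine and glutamine into cells with sodium. Slc38a2 was at 389 CPM in replicate 1 against 208 CPM in replicate 2. Slc38a1 was at 400.1 and 136.8 CPM. Both were higher in replicate 1, by 1.87-fold and 2.92-fold, so their means of 299 ± 128 and 268 ± 186 CPM (SD, n = 2) carry a wide error. Slc38a4, an imprinted gene, was at 104 and 108 CPM and differed by only 1.04-fold. Per kb of exon Slc38a2 exceeded Slc38a1 by 2.24-fold in replicate 1 against 3.50-fold in replicate 2, and Slc38a5 exceeded Slc38a4 by 20.6-fold and 19.0-fold.

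Slc38a10, a widely expressed carrier of glutamine, glutamate and aspartate, was at 127 CPM in replicate 1 against 123 CPM in replicate 2. The libraries did not differ beyond counting error for it (two-sided exact binomial test, Benjamini-Hochberg adjusted p = 0.443). An antisense transcript overlaps 6.8% of its exons, and without a stated strand setting its reads could not be separated. Slc38a9, the lysosomal arginine sensor that signals to mTORC1, was at 25.8 and 16.0 CPM. Slc38a7, which exports glutamine from lysosomes, was at 14.4 and 2.98 CPM. Both lysosomal carriers were thus present at a low level and were higher in replicate 1. Slc38a3, a system N carrier best known from liver and brain, was at 29.8 and 2.98 CPM, a 10.02-fold difference, and Slc38a11, whose substrate is not well established, was at 20.02 and 0.744 CPM, a 26.9-fold difference. Slc38a6 was at 3.54 and 1.57 CPM, and only 52% of its 25-base words are found in no other gene, which makes its count uncertain. Slc38a8 had no read.

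Slc7a2 (CAT2), a carrier of arginine, lysine and ornithine, led the Slc7 family with 867 CPM in replicate 1 against 807 CPM in replicate 2. Its mean of 837 ± 42.1 CPM (SD, n = 2) put it at percentile 99.7 of all symbols. The more widely expressed Slc7a1 (CAT1) was at 69.8 and 44.6 CPM. Per kb of exon Slc7a2 stood above Slc7a1 by 10.3-fold in replicate 1 against 15.02-fold in replicate 2. Slc7a3 (CAT3), the third cationic carrier, had no read. Slc7a4, a relative of these carriers without an established transport activity, was at 50.0 and 29.5 CPM.

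Slc7a14, a lysosomal relative of the cationic carriers that is prominent in the nervous system, was among the most abundant members. It was at 321 CPM in replicate 1 against 570.1 CPM in replicate 2, a mean of 446 ± 176 CPM (SD, n = 2) at percentile 98.9. Replicate 2 was 1.78-fold higher (two-sided exact binomial test, Benjamini-Hochberg adjusted p = 9.51e-189), whereas Slc7a2, Slc7a1 and Slc7a4 were each higher in replicate 1. Slc7a15 was at 0.161 CPM in replicate 1, from 2 reads, and at 9.92 CPM in replicate 2, from 120 reads. The ratio of 61.7 has a 95% counting interval from 16.7 to 515.

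The light chains Slc7a5 to Slc7a8, Slc7a10 and Slc7a11 reach the plasma membrane as disulfide-linked pairs with the heavy chain 4F2hc, the product of Slc3a2. Slc3a2 was at 55.1 CPM in replicate 1 against 76.5 CPM in replicate 2. Slc7a5 (LAT1), the exchanger of leucine and other large neutral amino acids, was at 93.8 and 148 CPM. Slc7a8 (LAT2), a related exchanger with a broader range of substrates, was at 86.3 and 84.7 CPM. Slc3a2 and Slc7a5 were both higher in replicate 2, by 1.39-fold and 1.58-fold, while Slc7a8 did not differ beyond counting error (two-sided exact binomial test, Benjamini-Hochberg adjusted p = 0.717).

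Heavy chain transcripts were fewer than those of its light chains as a sum. Slc3a2 was at 18.2 CPM per kb in replicate 1 and 25.3 in replicate 2, against 50.4 and 69.3 for the 6 light chains summed. The ratio was 0.362 in replicate 1 and 0.365 in replicate 2, a mean of 0.364 ± 0.00235 (SD, n = 2). Slc7a5 made up 52.9% and 60.6% of the light chain sum per kb and Slc7a8 41.9% and 29.9%. The other light chains were scarce. Slc7a6 (y+LAT2) was at 4.34 and 20.8 CPM, Slc7a7 (y+LAT1) at 3.62 and 0.661 CPM, and Slc7a10 (Asc-1) at 0 and 0.909 CPM. Genes on the opposite strand overlap 8.8% of the Slc7a7 exons and 11.2% of the Slc7a10 exons, so their low counts may include antisense reads. The ratio describes transcripts and says nothing of the amounts of protein.

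**Figure D3:**
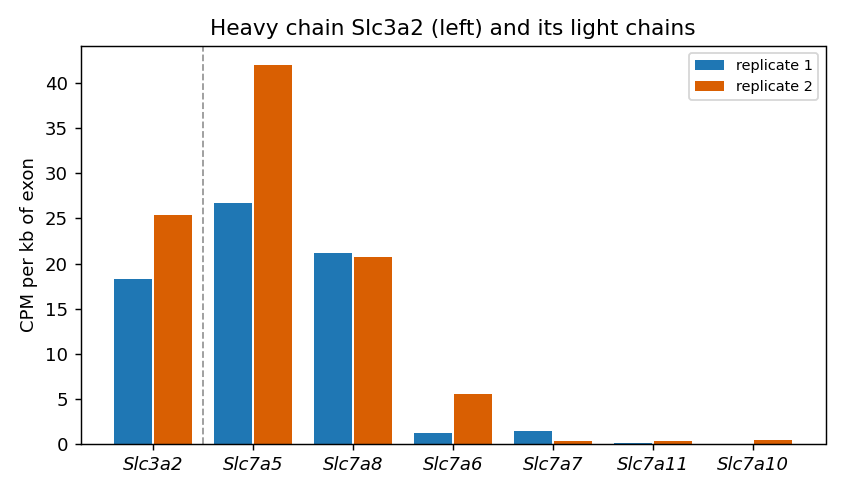
CPM per kb of exon for the heavy chain gene Slc3a2 and its 6 light chain genes in replicate 1 (blue) and replicate 2 (orange). Slc7a5 and Slc7a8 hold most of the light chain transcripts, and Slc3a2, at 18.2 and 25.3 CPM per kb, lies below the summed light chains in both libraries.

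The heavy chain rBAT, encoded by Slc3a1, and its partner Slc7a9 take up cystine and dibasic amino acids in kidney and gut. Slc3a1 had 0 reads in replicate 1 and 25 in replicate 2, or 2.07 CPM, which is at least 8.57-fold above the 3 reads per library that a count of 0 allows. Of its exon length, 26.5% lies opposite Prepl, so its reads may include those of that gene. No read was counted for Slc7a9 or Slc7a13, the light chains that pair with rBAT, nor for Slc7a12. The rBAT system was thus not detected as a pair in either library.

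Slc43a2 (LAT4) and Slc43a1 (LAT3) carry leucine, isoleucine, valine and phenylalanine by facilitated diffusion. Slc43a2 was at 275 CPM in replicate 1 against 305 CPM in replicate 2, and Slc43a1 was at 58.0 and 43.7 CPM. Slc43a2 was above Slc43a1 per kb of exon by 2.39-fold and 3.51-fold. An antisense gene overlaps 7.6% of the Slc43a2 exons. Slc43a3, a carrier of purine nucleobases and not of amino acids, was at 1.13 and 8.76 CPM.

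Slc36a1 (PAT1), which exports small neutral amino acids from lysosomes together with protons, was at 331 CPM in replicate 1 against 163 CPM in replicate 2. It was 2.04-fold higher in replicate 1. Slc36a4 (PAT4), a high-affinity carrier of proline and tryptophan, was at 38.4 and 12.7 CPM and was 3.02-fold higher in replicate 1. Per kb of exon Slc36a1 exceeded Slc36a4 by 10.4-fold and 15.48-fold. Slc36a2 and Slc36a3 had no read.

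Among Slc6 genes the taurine and creatine carriers were the highest in both libraries. The carriers of classical transmitters were scarce, apart from Slc6a11 in replicate 2. Slc6a6, the taurine transporter, was at 540.1 CPM in replicate 1 against 469.8 CPM in replicate 2, a mean of 505 ± 49.7 CPM (SD, n = 2). Slc6a8, the creatine transporter, was at 81.8 and 65.1 CPM. Both were close between the libraries, 1.15-fold and 1.26-fold apart. Slc6a17, which loads neutral amino acids into synaptic vesicles, was at 44.2 and 2.89 CPM, a 15.3-fold difference, and was the only other Slc6 member to reach 1 CPM in both libraries.

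The GABA, glycine and monoamine reuptake carriers given here were at or near the detection limit, with 1 exception in 1 library. Slc6a11, a GABA carrier of astrocytes (GAT3), was at 0.402 CPM in replicate 1 (95% interval from 0.131 to 0.938) but reached 40.3 CPM in the other library (from 36.8 to 44.0), a 100.2-fold difference. Its exons overlap no other gene, and 99.9% of its 25-base words are its own. Slc6a12, a betaine and GABA carrier, and Slc6a13, another GABA carrier, had no read in either library. Of the glycine carriers, Slc6a9 (GlyT1) was at 1.21 and 0.827 CPM and Slc6a5 (GlyT2) had no read. The antisense overlap of Slc6a9 with Ccdc24 and 1 other gene covers 42.3% of its exons. No read was counted for Slc6a2, Slc6a3 or Slc6a4, the carriers of noradrenaline, dopamine and serotonin.

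The remaining Slc6 carriers act on neutral amino acids. Slc6a19, the main neutral amino acid carrier of gut and kidney, had 1 read in replicate 1 and 61 in replicate 2, or 0.0804 and 5.04 CPM, a ratio of 62.7 with a 95% counting interval from 10.8 to 2518. Slc6a7, a proline carrier of the brain, was at 1.69 and 0.248 CPM. Slc6a15 had 0 and 5 reads, and Slc6a14 and Slc6a18 had none. None of these passed 1 CPM in both libraries.

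The Slc1 family clears glutamate at synapses through Slc1a1, Slc1a2 and Slc1a3 and exchanges neutral amino acids through Slc1a4 (ASCT1) and Slc1a5 (ASCT2). Slc1a2 (GLT-1) was at 0.482 CPM in replicate 1 (95% interval from 0.177 to 1.05) but reached 17.9 CPM in the other library (from 15.6 to 20.4). Slc1a1 (EAAC1) had 0 and 83 reads, and Slc1a3 (GLAST) 0 and 50 reads. All 3 were higher in replicate 2, Slc1a2 by 37.0-fold, Slc1a1 by at least 28.5-fold and Slc1a3 by at least 17.1-fold against 3 reads in replicate 1. An antisense gene overlaps 32% of the Slc1a1 exons. The glutamine exchanger Slc1a5, prominent in dividing cells, was at 0.643 and 1.49 CPM and Slc1a4 at 0.804 and 0.661 CPM, and neither differed between libraries in the exact test (two-sided binomial, Benjamini-Hochberg adjusted p = 0.0575 and 0.830). Slc1a7 had 11 reads in replicate 1 and 0 in replicate 2, and Slc1a6 had none.

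**Figure D4:**
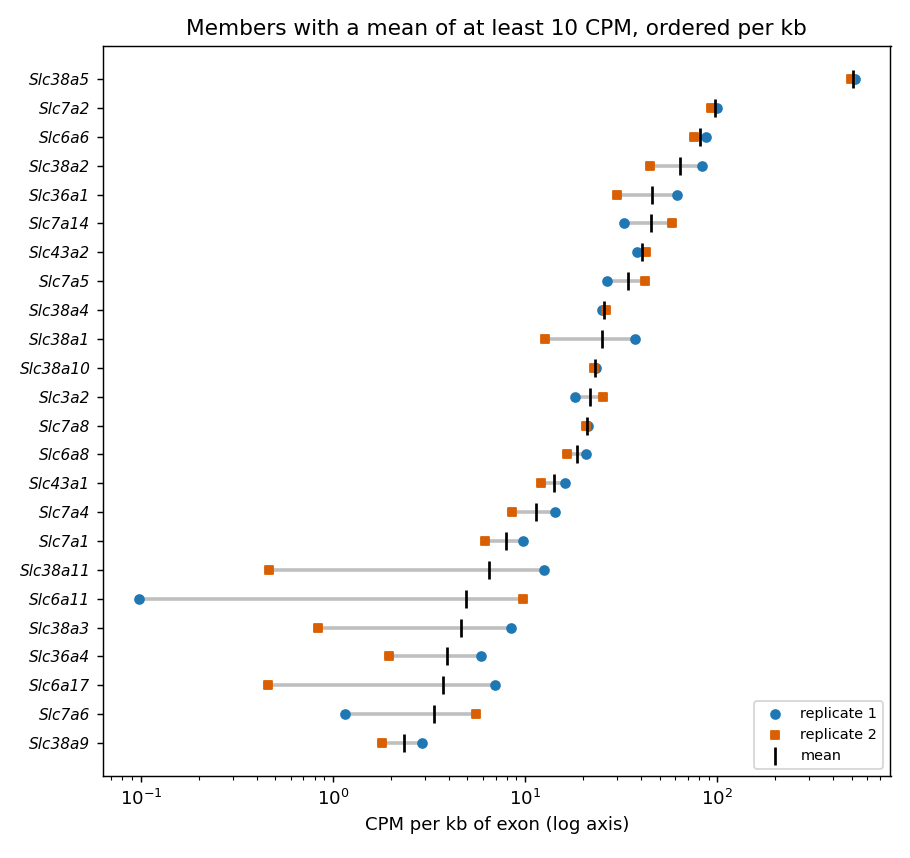
CPM per kb of exon on a log axis for the 24 members with a mean of at least 10 CPM, ordered by mean, with replicate 1 in blue, replicate 2 in orange and the mean as a black tick. Slc38a5 stands alone at 508 CPM per kb, and neighbours below Slc6a6 mostly overlap.

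Ordered per kb of exon, Slc38a5 at 508 ± 15.4, Slc7a2 at 96.6 ± 4.86 and Slc6a6 at 81.6 ± 8.04 CPM per kb (SD, n = 2) each lay above the next member in both libraries. The ranges of Slc38a5, Slc7a2 and Slc6a6 did not overlap. Slc6a6 overlapped with Slc38a2 at 64.1 ± 27.5 CPM per kb. Slc36a1, Slc7a14, Slc43a2 and Slc7a5, from 45.7 to 34.4 CPM per kb, overlapped each with its neighbour, and of these neighbours only Slc43a2 was above the next, Slc7a5, in both libraries. Slc7a5 was above Slc38a4 in both libraries without overlap, and so were Slc7a8 above Slc6a8 and Slc6a8 above Slc43a1. From Slc7a1 downwards the order turned over between libraries for every neighbouring pair. With 2 libraries an exact permutation test cannot give a p under 0.5, so no order was tested.

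How far the libraries lay apart varied among the members. A member was tested where both libraries together held at least 10 reads, which 42 of 59 members did. The two-sided exact binomial test, which compares these 2 libraries and not conditions, called 36 of the 42 (85.7%) at an adjusted p under 0.05, against 85.8% of 13416 genes tested. Of the 42 tested, 20 (47.6%) were called higher in replicate 1 and 16 (38.1%) in replicate 2, against 41.7% and 44.1% of all genes tested. More than 2-fold apart were 24 of 42 members (57.1%), against 48.2% of all genes tested. The shares called are near the background. The median log2 ratio of replicate 2 over replicate 1 was -0.08 for the members and 0.04 for all genes tested, and the median size of the log2 ratio was 1.32 against 0.95.

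The share over 2-fold apart was higher at lower levels, for members as for all genes tested. Among members with a mean of at least 100 CPM, 2 of 11, Slc38a1 and Slc36a1, were over 2-fold apart (18.2%, against 11.9% of all genes at that level). Between 10 and 100 CPM it was 6 of 13 (46.2%, against 42.9%), and under 10 CPM 16 of 18 (88.9%, against 75.9%). Detected at 1 CPM in replicate 2 and not in replicate 1 were 10 of 59 members (16.9%), against 5.87% of all symbols, and 4 (6.78%) showed the opposite, against 4.56%. Markers of acinar, mesenchymal, endothelial and immune cells were also higher in sum in replicate 1, at the levels given above, and their part in the members' differences was not tested. For Slc38a5 the adjusted p of 4.91e-04 came with a difference of only 1.04-fold, so a call by this test says little about size.

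**Figure D5:**
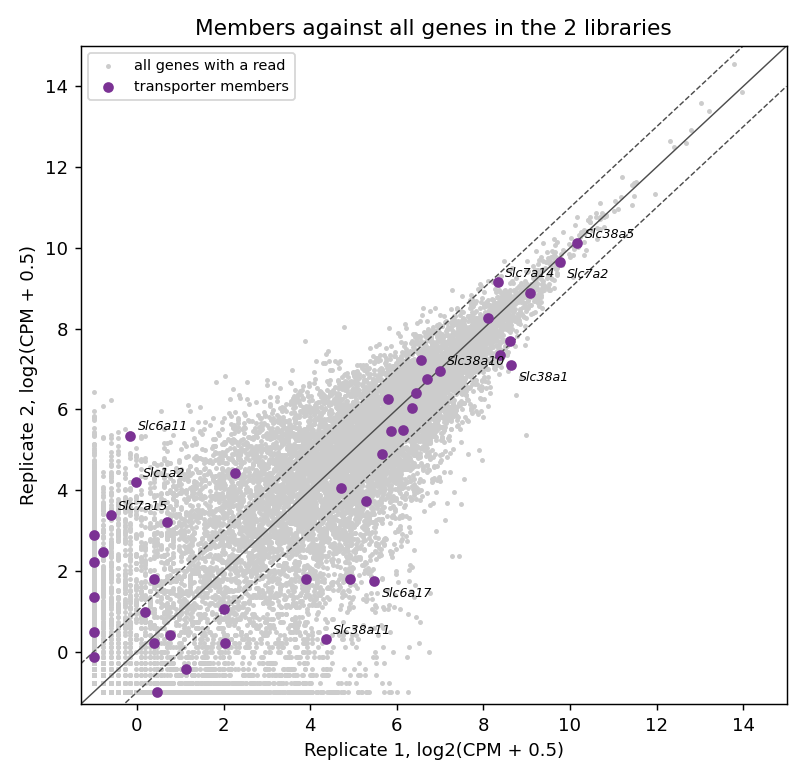
Replicate 2 against replicate 1 as log2(CPM + 0.5) for all genes with a read (grey) and 42 of the members (purple), with the solid line at equality and dashed lines at 2-fold. Slc38a5 and Slc7a2 lie close to the line, and Slc6a11, Slc1a2, Slc38a11 and Slc6a17 lie far from it.

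Genes that make, break down or load the transported transmitters were partly present. Of 12 genes for GABA and glutamate, 7 reached 1 CPM in both libraries, where 45.7% of all symbols did. Glud1, which converts glutamate to 2-oxoglutarate, was at 1704 CPM in replicate 1 against 1875 CPM in replicate 2, and Glul, which makes glutamine, was at 338 and 306 CPM. Gad1, the enzyme that makes GABA, was at 26.4 and 2.31 CPM, and the vesicular GABA carrier Slc32a1 had 0 and 5 reads. Gls2, a glutaminase gene, had 0 and 3 reads. Slc17a7, a vesicular glutamate carrier, was at 16.0 and 18.1 CPM, while Slc17a6 and Slc17a8 had no read. Of 8 genes tested, 5 were called higher in replicate 2 and 2 in replicate 1 in the exact test, where 44.1% and 41.7% of all genes tested were, and the same shares are the background of the lists that follow.

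Of 10 genes of monoamine metabolism, 6 reached 1 CPM in both libraries, although no read was counted for the 3 monoamine reuptake carriers. Ddc, which makes dopamine and serotonin from their precursors, was at 54.6 CPM in replicate 1 against 51.6 CPM in replicate 2, and Maob, which breaks amines down, was at 184 and 165 CPM. The vesicular amine carriers Slc18a1 and Slc18a2 were at 28.1 and 4.13 CPM and at 22.4 and 5.79 CPM. Tph2 and Dbh had no read. Of 8 tested, 3 were higher in replicate 2 and 4 in replicate 1, against 44.1% and 41.7% of all genes tested.

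The response to amino acid shortage and the lysosomal sensing of amino acids were also listed. Of 22 genes of the deprivation response and ATF4 targets, 18 reached 1 CPM in both libraries (45.7% of all symbols did). They were led by Atf4 and by Cebpg, its partner, at 84.4 and 123 CPM. Asns, the asparagine synthetase, was at 10.2 and 13.6 CPM. Trib3 had no read, and Pycr1 had 2 and 1 reads. Of 20 tested, 12 were higher in replicate 2 and 6 in replicate 1, against 44.1% and 41.7% of all genes tested. Of 26 measured genes of mTORC1 sensing, 24 reached 1 CPM in both libraries, with Mtor at 165 and 124 CPM, and of 25 tested 11 were higher in replicate 2 and 10 in replicate 1. Gatsl2, listed as a relative of an arginine sensor, was the highest of these at 413 and 563 CPM, and Gatsl3 had no read.

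Of 23 genes that use the carried substrates, 14 reached 1 CPM in both libraries, and of 18 tested 9 were higher in replicate 2 and 6 in replicate 1. Over all genes 45.7% were detected in both, and 44.1% and 41.7% of those tested were called higher in replicates 2 and 1. Arg1, an arginase, was at 36.7 CPM in replicate 1 against 100.7 CPM in replicate 2, and Cdo1, which starts the path from cysteine to taurine, was at 44.6 and 42.9 CPM. Gatm, the first enzyme of creatine synthesis, had 0 and 212 reads. Cth and Nos3 had no read, and Nos1 had 0 and 3 reads. Of 14 other amino acid carriers 9 reached 1 CPM in both libraries, led by the aromatic amino acid carrier Slc16a10 at 235 and 277 CPM, and of 13 tested 7 were higher in replicate 2 and 3 in replicate 1. Of 10 accessory and trafficking genes 9 did, led by the ubiquitin ligase gene Nedd4 at 1578 and 1187 CPM, and of 10 tested 4 were higher in replicate 2 and 6 in replicate 1. Tmem27, which encodes collectrin, a partner of Slc6a19 and related carriers in kidney, was at 212 and 274 CPM. Slc6a20b had no read.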

How the data were processed

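The authors deposited whole-number counts of reads for each gene symbol, 1 table per library. TopHat2 2.0.4, Cufflinks 2.0.2, cutadapt, FastQC, DESeq and the build mm9 appear in the submitters' processing notes. How reads were counted, on which annotation and with which strand setting is not given in the sources used here. Counts were scaled with TMM factors (edgeR 4.0.16, R 4.3.3). A two-sided exact binomial test set each gene's reads in replicate 2 against those in replicate 1. It was run where a gene had at least 10 reads in all, and adjusted over all 13416 genes at 0.05. Log2 ratios used a prior count of 2. Exon lengths (union of exons of the basic set), overlaps and 25-base words came from GENCODE M21 on GRCm38, not mm9, and matched all 59 members. Promoters came from RefSeq on GRCm38.p6.

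The members and the 7 lists of related genes, with 120 symbols of which 117 were found, were chosen with earlier results of these data known. Members with a mean of at least 10 CPM, or detected in 1 library and over 4-fold apart, were to be given by library, and up to 5 leading symbols of each list, and those with at most 3 reads per library, were to be named. Gad1, Slc17a7, Slc32a1, Slc18a2, Asns and Gatm were chosen after their values were seen. A few members and markers are not reported here by name but count in the totals. Alternatives were plain totals, DESeq2 1.42.0 size factors, totals without the 10 most abundant genes, detection limits of 0.5 and 5 CPM, other read minimums and prior counts, and leaving out each library. Depth was 12495143 and 12043734 reads, which limits precision below about 1 CPM.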

Additional observations from a re-analysis of the deposited data

How the results depend on the processing

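The number of members detected in both libraries was 25 under each scaling, 31 at a limit of 0.5 CPM, 19 at 5 CPM, and 29 to 35 in single libraries. Members called different between the libraries numbered 36 under each scaling, 37 with no read minimum beyond 1 and 25 of 28 with at least 100 reads. Members over 2-fold apart numbered 24 under each scaling, but 12 of 28 with at least 100 reads, where fewer members were tested. The summed level of the members was 4925 CPM, 5651 CPM with the 10 most abundant genes left out of the totals, which makes the totals smaller, and 1127 per kb of exon. Slc3a2 over its light chains was 0.364 per kb, 0.294 without correction for length, 0.643 over Slc7a5 alone and 0.390 per kb of the longest transcript, a setting added after seeing the data. Per kb of the longest transcript Slc38a5 was above Slc7a2 by 5.31-fold and 5.46-fold. Counts of the related lists stayed within 1.5 times the main count. No paired analysis was possible because the 2 libraries belong to 1 group. Levels under 3 reads per library, 0.241 and 0.248 CPM, cannot be told from 0.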
